A study of Mus musculus with 12 samples.

Results

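The genes described here encode 10 enzymes that modify and crosslink collagen. They are the lysyl oxidases Lox, Loxl1, Loxl2 and Loxl3, the lysyl hydroxylases Plod1, Plod2 and Plod3, and the prolyl 4-hydroxylase alpha subunits P4ha1, P4ha2 and P4ha3. They were chosen by name, and all 10 were found among the 50559 gene symbols counted in mouse visceral white adipose tissue and among the 16550 genes that passed the filter on low counts. The tissue came from FVB/N mice in 4 groups of 3 libraries each. Transgenic mice carried a TGFb transgene and the tTA driver, both under the heart muscle promoter alphaMHC, and were on high-fat diet or on control diet. Littermate mice called wild type carried the alphaMHC tTA driver alone, so the driver was present in every group, and they too were on high-fat or control diet. The high-fat diet (60% of energy as fat, 5.21 kcal/g) was started at 8 to 10 weeks of age and lasted 2 or 6 weeks, and the labels do not tie a duration to a library. The control chow had 17% of energy as fat and 3.1 kcal/g, and no age is given for the mice fed it. The labels name neither the animal behind each library nor its sex. A p-value here therefore speaks of the spread among libraries within groups, and that spread may be partly technical. With 3 libraries a group, the spread of each gene was estimated over all 4 groups together.

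Collagen chains are modified while they are still in the endoplasmic reticulum. Prolyl 4-hydroxylase, built from an alpha subunit and protein disulphide isomerase, hydroxylates prolines and so lets the triple helix hold at body temperature, and the lysyl hydroxylases prepare lysines for sugar attachment and crosslinking. After secretion, the copper-dependent lysyl oxidases convert lysines of collagen and elastin into reactive aldehydes that join neighbouring molecules. In adipose tissue the pericellular collagen network, rich in type VI collagen, surrounds each fat cell, and its stiffening is a known feature of obese fat.

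The upstream sequences of 3 of these genes are shown, chosen with their diet results known. No result below rests on these sequences. Plod1 was the enzyme gene that passed the test for diet, Plod3 is its close relative that did not, and P4ha1, known as a target of the hypoxia factor HIF-1 in human and mouse cells, had the lowest diet p-value among the genes with a lower level on high-fat diet. The RefSeq table for GRCm38.p6 held an upstream window for 5 of the 10 genes. The windows run up to the annotated gene start, at chr4:147936777-147937026 on the minus strand for Plod1, chr5:136986769-136987018 on the plus strand for Plod3 and chr10:59323046-59323196 on the plus strand for P4ha1. They are written 5′ to 3′, and capitals mark matches on either strand to the hypoxia response element cores ACGTG and GCGTG and to the Smad-binding CAGA box core CAGAC.
Plod1: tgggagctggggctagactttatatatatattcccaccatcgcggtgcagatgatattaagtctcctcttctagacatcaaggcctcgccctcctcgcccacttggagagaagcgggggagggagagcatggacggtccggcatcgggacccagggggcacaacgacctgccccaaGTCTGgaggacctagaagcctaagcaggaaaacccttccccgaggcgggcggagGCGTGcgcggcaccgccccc
Plod3: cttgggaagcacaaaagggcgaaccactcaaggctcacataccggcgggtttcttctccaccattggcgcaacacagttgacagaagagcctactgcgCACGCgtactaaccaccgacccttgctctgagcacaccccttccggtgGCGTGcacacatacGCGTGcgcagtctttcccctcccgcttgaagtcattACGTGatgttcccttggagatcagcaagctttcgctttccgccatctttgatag
P4ha1: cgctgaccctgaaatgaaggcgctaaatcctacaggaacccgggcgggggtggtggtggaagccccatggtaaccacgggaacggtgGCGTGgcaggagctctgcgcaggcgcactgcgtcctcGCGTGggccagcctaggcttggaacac
The Plod1 window held 1 match to GCGTG, 1 to CAGAC and 0 to ACGTG. The Plod3 window held 3 matches to GCGTG and 1 to ACGTG, and the P4ha1 window held 2 matches to GCGTG. Of the windows not printed, that of P4ha2 held 2 matches to GCGTG and 1 to ACGTG, and that of P4ha3 held 0. Of all 32851 windows cut to 250 bases, 28.2% held GCGTG, 16.6% ACGTG and 42.2% CAGAC, and of those cut to the 151 bases of P4ha1, 16.6% held GCGTG. Such letters are therefore common upstream of mouse genes, and a match is a description of the sequence, not of a bound factor.

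Depth was even, with 20.1 to 21.3 M counts assigned to genes in a library. All 8 adipocyte markers were detected in every library, with Adipoq, the adipocyte hormone adiponectin, between 3066 and 5460 CPM (reads relative to the library total, scaled by TMM factors). Some libraries stood apart in markers of other tissues. Summed keratin epithelium markers reached 220.7 CPM in transgenic control library 2 and 32.6 CPM in wild-type control library 1, against at most 8.09 CPM elsewhere. Summed muscle markers reached 885 CPM in transgenic control library 3 and 616 CPM in wild-type high-fat library 3, against at most 117 CPM elsewhere, and liver markers reached 317 CPM in wild-type high-fat library 2. Calls that changed without these libraries are given with and without them.

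The enzyme genes spanned a wide range of levels. Per kilobase of annotated exon, Loxl1, a lysyl oxidase needed for elastic fibre upkeep in mice, was highest at a mean of 53.3 CPM per kb over the 12 libraries, followed by Plod3 at 31.1, Lox at 22.2 and Plod1 at 20.7 CPM per kb. P4ha1 averaged 10.1, Loxl2 7.31, P4ha2 5.12, Plod2 4.34, Loxl3 2.09 and P4ha3 0.947 CPM per kb. Between neighbours in this order, the ranges over libraries stayed apart for Loxl1 and Plod3 and for Plod1 and P4ha1, and overlapped for every other neighbouring pair. P4ha1 was the most abundant of the prolyl 4-hydroxylase alpha subunits, and Loxl1 of the lysyl oxidases.

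The genes also differed in how much they varied between libraries of a group. Plod3 was the steadiest, with a mean coefficient of variation within groups of 8.22% and a highest library 1.34 times the lowest, and Plod1 had 8.55%. P4ha3 varied most, with 60.6% and a 12.2-fold range, on 11 to 148 counts a library. Plod2 had 34.8% and Lox 33.1%. A diet or transgene effect on those 3 genes therefore had to be large to stand out.

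**Figure D1:**
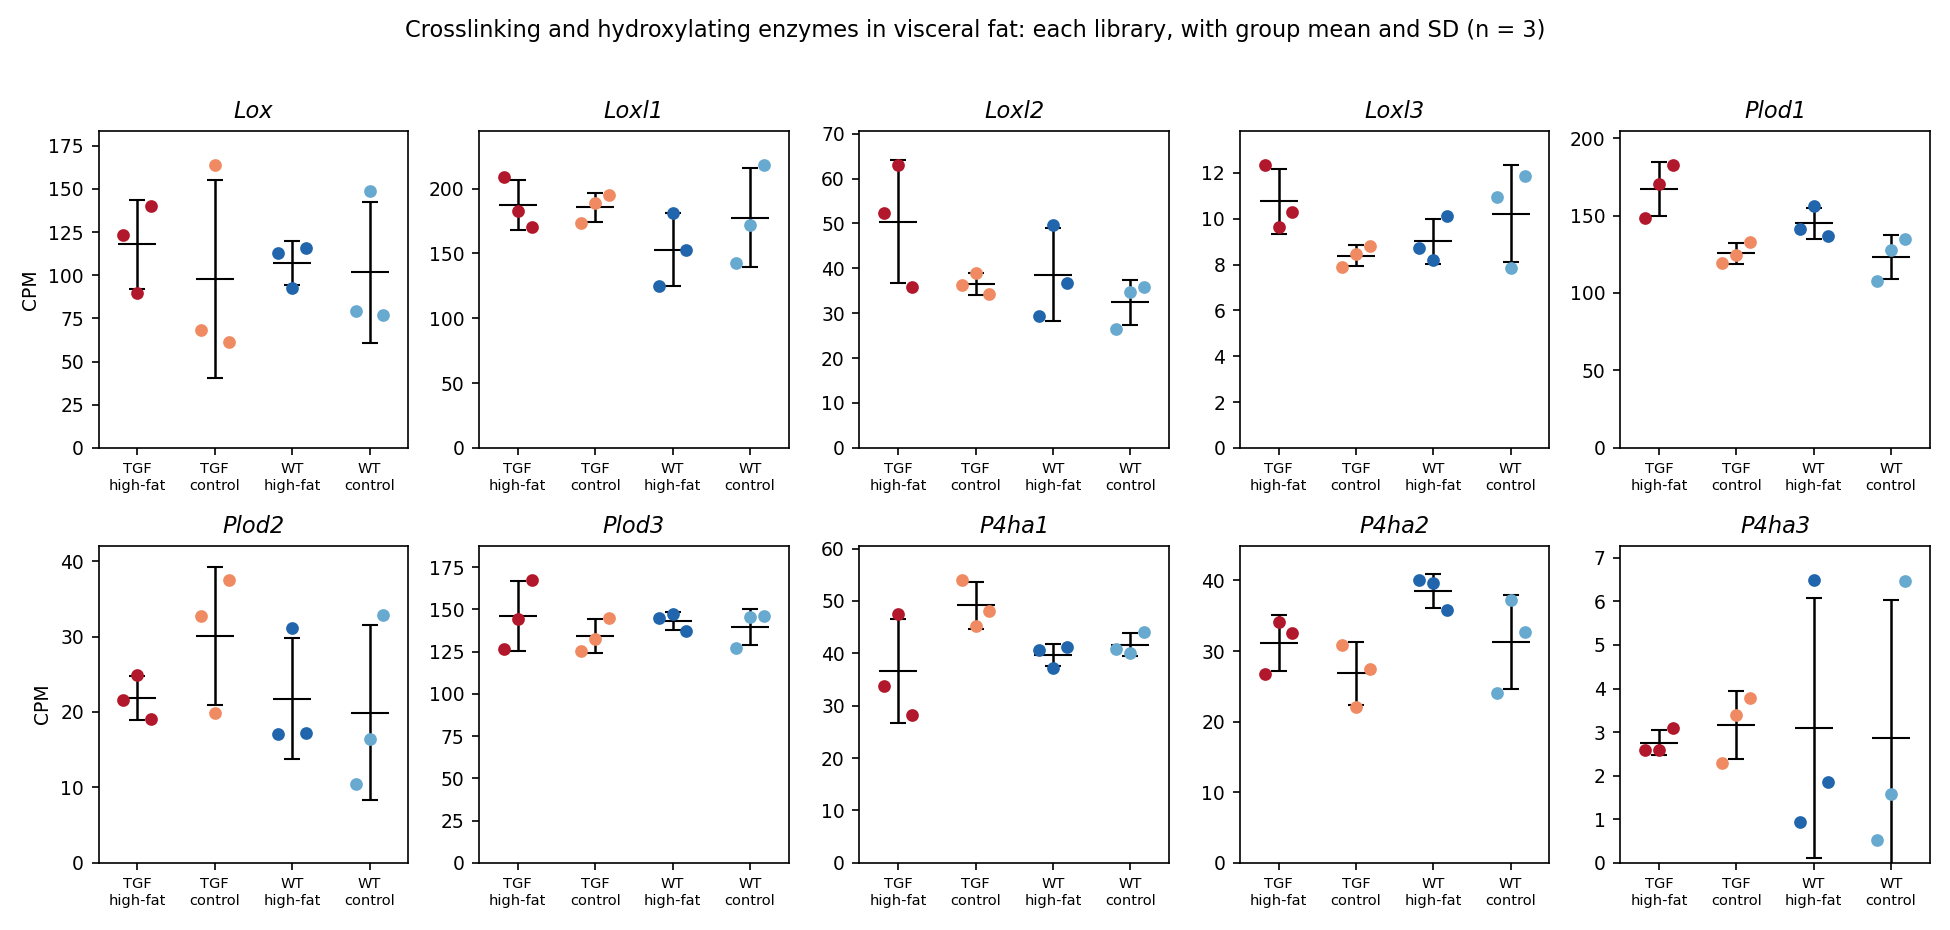
Level of each enzyme gene in CPM on the vertical axis, for transgenic (TGF) and wild-type (WT) libraries on high-fat and control diet. Points are single libraries, and black lines give the group mean and SD (n = 3), with SD bars cut off at 0. The 3 transgenic high-fat points of Plod1, at 149 to 183 CPM, lie above the 3 transgenic control points, at 119 to 133 CPM.

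High-fat diet raised 1 of the 10 enzyme genes in transgenic tissue, Plod1, and none passed the test in wild-type tissue. In transgenic tissue 8.73% of all genes tested passed in either direction and 5.39% passed upward, so a count of 1 in 10 lies near that background. At an unadjusted p below 0.05 there were 3 of the 10 in transgenic tissue, Plod1, P4ha1 and Loxl2, against 25.8% of all genes. The median log2 fold change of the 10 enzyme genes was 0.17 in transgenic and 0.09 in wild-type tissue, against -0.02 and -0.01 over all genes tested, and 7 of the 10 were positive in each genotype. In wild-type tissue 1.14% of all genes passed with edgeR, and none of the 10 enzyme genes did with edgeR, DESeq2 or limma-voom. None of them had an unadjusted p below 0.05 there either, against 18.1% of all genes. In bulk tissue, fewer cells of a type and less RNA per cell cannot be told apart.

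Plod1 encodes lysyl hydroxylase 1, which acts mainly on lysines in the triple helix, and lies at chr4:147909753-147936767 on the minus strand. It had 149, 170.0 and 183 CPM in transgenic high-fat libraries, against 119, 125 and 133 CPM in transgenic control libraries. It had 141, 156 and 137 CPM in wild-type high-fat libraries, against 107, 127 and 135 CPM in wild-type control libraries. In each genotype every high-fat library lay above every control library, although by little in wild type, where Plod1 was 1 of the 10 enzyme genes without overlap, against 24.9% of all genes. The transgenic means were 167 ± 17.3 CPM on high-fat and 126 ± 6.69 CPM on control diet (SD, n = 3 each), 1.33-fold higher on high-fat diet (log2 fold change 0.41, SE 0.11, 95% interval 0.17 to 0.66, adjusted p = 0.041 by edgeR). The wild-type means were 145 ± 10.2 CPM on high-fat and 123 ± 14.1 CPM on control diet, a log2 fold change of 0.23 (SE 0.11, 95% interval -0.01 to 0.48, adjusted p = 0.292). Averaged over both genotypes the diet effect on Plod1 was 0.32 (SE 0.08, adjusted p = 0.0163), in a comparison where 17.4% of all genes passed and 9.43% passed upward. The other 9 enzyme genes did not pass, and 4 of the 10 had an unadjusted p below 0.05, against 32.4% of all genes. The diet effects of the 2 genotypes on Plod1 differed by 0.18, transgenic minus wild type (SE 0.16, adjusted p = 0.926), and the genotypes were not shown to differ. In the authors' deposited table the Plod1 log2 fold change was 0.42 in transgenic tissue (adjusted p = 0.0265) and 0.24 in wild-type tissue (adjusted p = 0.325).

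The transgenic call for Plod1 lay close to the threshold. It was lost with library totals in place of TMM scaling (0.39, adjusted p = 0.0766), in a fit of the 6 transgenic libraries alone (adjusted p = 0.0828), without both keratin-rich libraries (adjusted p = 0.0799) and without both muscle-rich libraries (adjusted p = 0.0634). It was also lost on leaving out transgenic high-fat library 2 (adjusted p = 0.0904) or 3 (0.144), transgenic control library 1 (0.128) or 2 (0.0928), wild-type high-fat library 1 (0.0568), 2 (0.0544) or 3 (0.0562), or wild-type control library 2 (0.0537), while the log2 fold change stayed between 0.35 and 0.50. The averaged diet call was lost without both keratin-rich libraries (0.28, adjusted p = 0.0605) and kept in each of the 12 fits that left out 1 library.

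The other lysyl hydroxylases did not pass. Plod3 encodes lysyl hydroxylase 3, which also transfers sugars onto hydroxylysine. It had 126, 144 and 168 CPM in transgenic high-fat libraries, against 125, 132 and 145 CPM in transgenic control libraries. Its wild-type libraries lay at 137 to 147 CPM on high-fat and 127 to 146 CPM on control diet, so the groups overlapped throughout. The log2 fold change of Plod3 with diet was 0.12 in transgenic tissue (SE 0.11, 95% interval -0.12 to 0.37, adjusted p = 0.531) and 0.03 in wild-type tissue (SE 0.11, 95% interval -0.21 to 0.28, adjusted p = 0.907). Part of Plod3, 11.7% of its exon bases, overlaps the opposite-strand gene Znhit1, and the strand setting of the counting is not given in the sources used here.

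Plod2 encodes lysyl hydroxylase 2, which acts on the telopeptide lysines at the chain ends, and is a known HIF-1 target. It had 21.6, 25.0 and 19.1 CPM in transgenic high-fat libraries, against 32.8, 19.8 and 37.6 CPM in transgenic control libraries. It had 17.0, 31.1 and 17.2 CPM in wild-type high-fat libraries, against 10.5, 16.4 and 32.8 CPM in wild-type control libraries. Within 3 of the 4 groups a single library stood away from the other two, and the diets overlapped in both genotypes. The log2 fold change was -0.46 in transgenic tissue (SE 0.37, adjusted p = 0.471) and 0.13 in wild-type tissue (SE 0.37, adjusted p = 0.891). The wild-type value turned to -0.22 without wild-type high-fat library 2 and to -0.17 without wild-type control library 1. Of the exon bases of Plod2, 6.42% overlap the opposite-strand gene Gm38391.

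None of the 3 prolyl 4-hydroxylase alpha subunits passed the diet test, and their fold changes had different signs. P4ha1, the main alpha subunit in most tissues, had 33.8, 47.5 and 28.2 CPM in transgenic high-fat libraries, against 54.1, 45.3 and 48.1 CPM in transgenic control libraries. Transgenic high-fat library 2 lay inside the control range and the other 2 high-fat libraries lay below it. Wild-type libraries lay at 37.2 to 41.2 CPM on high-fat and 40.1 to 44.1 CPM on control diet. The log2 fold change of P4ha1 was -0.43 in transgenic tissue (SE 0.15, 95% interval -0.76 to -0.09, unadjusted p = 0.0164, adjusted p = 0.103), and -0.07 in wild-type tissue (SE 0.15, adjusted p = 0.849). Without transgenic high-fat library 2 the transgenic value was -0.65 and passed (adjusted p = 0.0106), and so did the diet effect averaged over genotypes (-0.36, adjusted p = 0.013, against -0.25 and adjusted p = 0.134 with all libraries).

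P4ha2, the second alpha subunit, had positive diet values in both genotypes. It lay at 26.7 to 34.1 CPM in transgenic high-fat and 22.1 to 30.9 CPM in transgenic control libraries, and at 35.8 to 40.1 CPM in wild-type high-fat and 24.1 to 37.2 CPM in wild-type control libraries. Its log2 fold change was 0.21 in transgenic tissue (SE 0.16, adjusted p = 0.450) and 0.30 in wild-type tissue (SE 0.16, adjusted p = 0.361). Averaged over the genotypes it was 0.26 (SE 0.12, unadjusted p = 0.047, adjusted p = 0.148), which did not pass, and was 0.12 without both keratin-rich libraries (adjusted p = 0.430). P4ha3, the rarest alpha subunit, had 2.59, 2.59 and 3.09 CPM in transgenic high-fat libraries, against 2.28, 3.40 and 3.79 CPM in transgenic control libraries. It had 0.944, 6.501 and 1.85 CPM in wild-type high-fat libraries, against 0.533, 1.57 and 6.47 CPM in wild-type control libraries. In wild type a single library of each diet was far above the other two. The log2 fold change of P4ha3 was -0.20 in transgenic tissue (SE 0.75, adjusted p = 0.901) and 0.12 in wild-type tissue (SE 0.75, 95% interval -1.51 to 1.74, adjusted p = 0.952). Effects of either sign within that interval were not excluded. The wild-type value turned to -1.03 without wild-type high-fat library 2, to -0.37 without wild-type control library 1 and to -0.16 without wild-type control library 2.

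Among the secreted crosslinkers, no lysyl oxidase passed the diet test in either genotype. All 4 had a positive log2 fold change in transgenic tissue, with a median of 0.31, and 2 of 4 in wild-type tissue, with a median of -0.05. Loxl2, which crosslinks type IV collagen of basement membranes, had 52.4, 63.1 and 35.8 CPM in transgenic high-fat libraries, against 36.2, 39.1 and 34.3 CPM in transgenic control libraries. It had 29.3, 49.7 and 36.8 CPM in wild-type high-fat libraries, against 26.5, 34.8 and 35.9 CPM in wild-type control libraries. Transgenic high-fat libraries 1 and 2 lay above all controls, and library 3 lay among them. Loxl2 had a log2 fold change of 0.47 in transgenic tissue (SE 0.21, 95% interval 0.00 to 0.93, unadjusted p = 0.0495, adjusted p = 0.192) and 0.25 in wild-type tissue (SE 0.21, adjusted p = 0.575). Averaged over genotypes it was 0.36 (SE 0.15, unadjusted p = 0.0347, adjusted p = 0.121), and it passed when transgenic high-fat library 3 was left out (0.47, adjusted p = 0.0469). Of the exon bases of Loxl2, 5.57% overlap the opposite-strand gene Gm27177.

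Loxl3, a low-level lysyl oxidase, had 12.4, 9.63 and 10.3 CPM in transgenic high-fat libraries, against 7.88, 8.47 and 8.80 CPM in transgenic control libraries. It had 8.73, 8.21 and 10.1 CPM in wild-type high-fat libraries, against 10.9, 7.86 and 11.9 CPM in wild-type control libraries. The transgenic groups did not overlap, as was the case for 2 of the 10 enzyme genes (the other being Plod1) and for 27.8% of all genes, while the wild-type groups overlapped. The log2 fold change was 0.36 in transgenic tissue (SE 0.17, adjusted p = 0.199) and -0.18 in wild-type tissue (SE 0.17, adjusted p = 0.609). Loxl3 was the enzyme gene with an unadjusted p below 0.05 for the difference between those diet effects (0.54, SE 0.24, unadjusted p = 0.0406). That difference did not pass after adjustment (adjusted p = 0.854), and 5.61% of all genes had an unadjusted p below 0.05. Of its exon bases, 11.6% overlap the opposite-strand gene Htra2.

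Lox, the founding member of the family and a crosslinker of both collagen and elastin, had 124, 89.9 and 140.4 CPM in transgenic high-fat libraries, against 68.5, 164 and 61.3 CPM in transgenic control libraries. It had 113, 92.5 and 116 CPM in wild-type high-fat libraries, against 79.5, 149 and 76.9 CPM in wild-type control libraries. In each genotype control library 2 was the highest library and the other 2 control libraries lay below all high-fat libraries. With diet, Lox differed by 0.27 on the log2 scale in transgenic tissue (SE 0.35, 95% interval -0.49 to 1.03, adjusted p = 0.677) and 0.07 in wild-type tissue (SE 0.35, adjusted p = 0.938). Keratin epithelium markers were high in transgenic control library 2 but not in wild-type control library 2, where they summed to 4.72 CPM. Loxl1 lay at 170.5 to 209 CPM in transgenic high-fat and 173 to 195 CPM in transgenic control libraries, and at 125 to 181 CPM in wild-type high-fat and 143 to 218 CPM in wild-type control libraries. Its log2 fold change was 0.01 in transgenic tissue (SE 0.16, 95% interval -0.34 to 0.37, adjusted p = 0.969) and -0.22 in wild-type tissue (SE 0.16, adjusted p = 0.516).

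**Figure D2:**
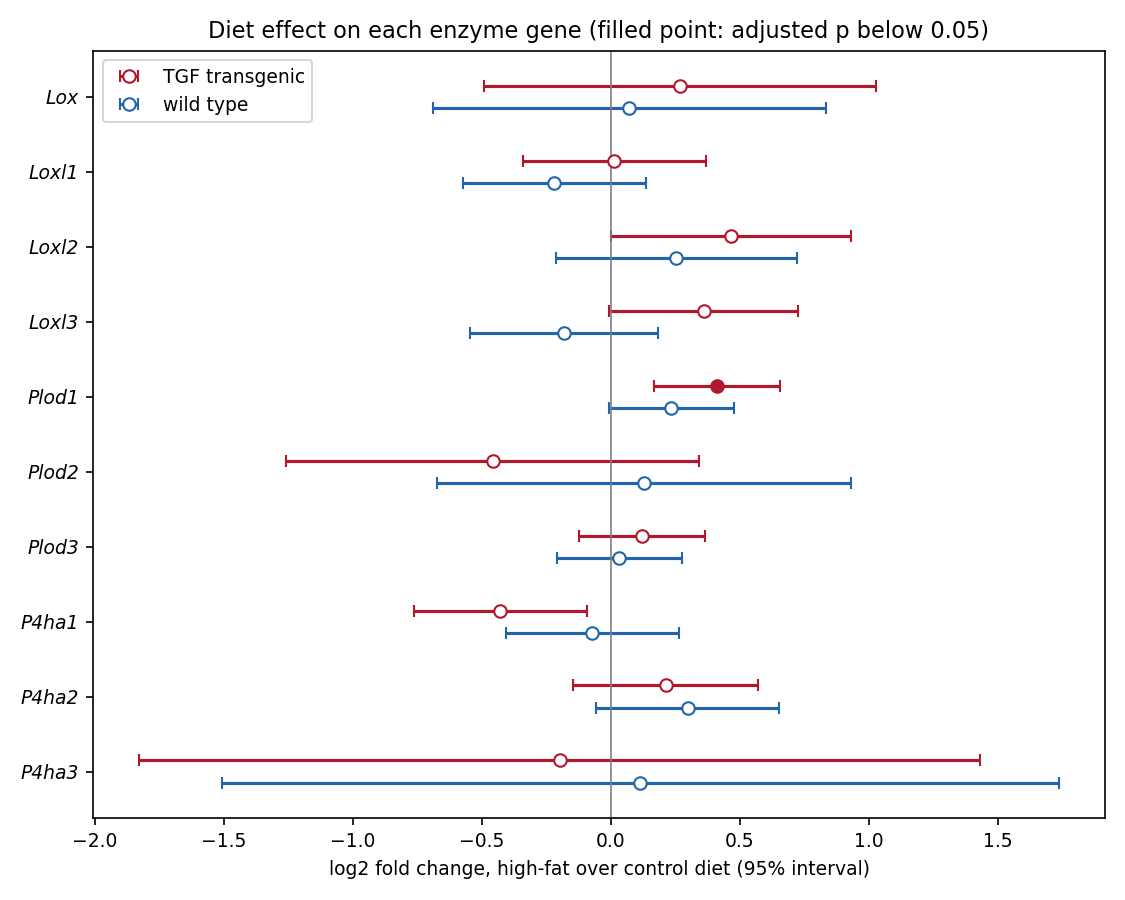
Log2 fold change of each enzyme gene, high-fat over control diet, on the horizontal axis, for transgenic (red, above) and wild-type tissue (blue, below), with 95% intervals from edgeR. A filled point marks an adjusted p below 0.05, which Plod1 in transgenic tissue reached at 0.41.

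The second question of the design is whether the transgene in the heart altered these enzymes in fat. None of the 10 genes passed in transgenic against wild-type tissue on high-fat diet, on control diet or averaged over the diets, with edgeR, DESeq2 or limma-voom, and the share of all genes that passed with edgeR was 0%, 0.0363% and 0% in these comparisons. Over all genes, DESeq2 called 4, 256 and 227 in the same order, and limma-voom 0, 8 and 2. The authors' deposited comparisons called 73 genes on high-fat and 151 on control diet. At an unadjusted p below 0.05 there were none on high-fat diet (6.73% of all genes) and none on control diet (11% of all genes). Averaged over the diets there was 1, P4ha2 (12.3% of all genes), which was lower in transgenic tissue (log2 fold change -0.26, SE 0.12, unadjusted p = 0.041, adjusted p = 0.390). P4ha2 lay at 26.7 to 34.1 CPM in transgenic and 35.8 to 40.1 CPM in wild-type high-fat libraries without overlap, as did 1 of the 10 enzyme genes and 14% of all genes. On control diet P4ha1 lay at 45.3 to 54.1 CPM in transgenic and 40.1 to 44.1 CPM in wild-type libraries, again 1 of the 10 genes without overlap, as for 14.1% of all genes (log2 fold change 0.24, SE 0.15, adjusted p = 0.603). The difference between the diet effects of the 2 genotypes passed for none of the 10 genes with edgeR, DESeq2 or limma-voom (0% of all genes with edgeR, 23 genes with DESeq2 and 0 with limma-voom).

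The genes that work beside these enzymes were read from a list of 25 collagen processing partners, of which 24 were tested. In transgenic tissue high-fat diet raised 3 and lowered 1, with a median log2 fold change of 0.06, and in wild-type tissue none passed, with a median of 0.11. Of all genes tested 8.73% passed in transgenic and 1.14% in wild-type tissue, so none of 24 in wild type lies near that background. P3h1, the prolyl 3-hydroxylase of fibrillar collagens, rose to 58.1 ± 5.14 CPM on high-fat, against 38.1 ± 1.05 CPM on control diet (log2 fold change 0.61, SE 0.12, adjusted p = 0.0106). Serpinh1, the collagen chaperone HSP47, rose by 0.61 on the log2 scale (SE 0.14, adjusted p = 0.0236). Bmp1, the procollagen C-proteinase that also releases active Lox from its precursor, rose by 0.45 (SE 0.11, adjusted p = 0.0292). P3h4, part of the endoplasmic reticulum complex that holds lysyl hydroxylase 1 in mice, fell to 18.7 ± 3.51 CPM on high-fat, against 31.9 ± 6.30 CPM on control diet (log2 fold change -0.77, SE 0.19, adjusted p = 0.0278). In transgenic tissue Plod1 was thus called higher and its partner P3h4 lower on high-fat diet. Both edgeR calls were lost without both muscle-rich libraries (adjusted p = 0.0634 for Plod1 and 0.0683 for P3h4). They were also lost in a fit of the transgenic libraries alone (adjusted p = 0.0828 and 0.0573). In wild-type tissue the values were 0.39 for P3h1 (adjusted p = 0.114), 0.39 for Serpinh1 (adjusted p = 0.176), 0.12 for Bmp1 (adjusted p = 0.629), -0.41 for P3h4 (adjusted p = 0.275) and 0.93 for Loxl4, the remaining lysyl oxidase (adjusted p = 0.124 with edgeR and 0.043 with DESeq2).

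Some of these partner calls rested on single libraries. The count of 4 in transgenic tissue fell to 2 without transgenic high-fat library 1, to 1 without transgenic high-fat library 3, and to 2 without transgenic control library 1 or 2. P3h1 passed in each of the 12 fits that left out 1 library (adjusted p up to 0.0458), Serpinh1 in 10, P3h4 in 8 and Bmp1 in 7. Without both muscle-rich libraries the edgeR calls of Serpinh1 (adjusted p = 0.0606), P3h4 (0.0683) and Bmp1 (0.0541) were lost. Other partners passed in that fit, so the count over the list did not fall by as much. Without both keratin-rich libraries those of Serpinh1 (adjusted p = 0.0889) and Bmp1 (0.0835) were lost.

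Several collagen chain genes, which encode the main substrates of the enzymes, rose with high-fat diet in both genotypes. Of 13 collagen chain genes and Eln, high-fat diet raised 9 and lowered 0 in transgenic tissue and raised 3 and lowered 0 in wild-type tissue. The median log2 fold changes were 0.74 and 0.64, while 8.73% and 1.14% of all genes passed in either direction. The list was chosen with earlier results of these data known, so these counts are a description and not a test of the list. Col6a2, a chain of the type VI collagen around fat cells, rose to 1549 ± 352 CPM on high-fat, against 426 ± 86.0 CPM on control diet in transgenic tissue (log2 fold change 1.86, SE 0.21, adjusted p = 0.00125). In wild type Col6a2 averaged 1304 ± 220.1 CPM on high-fat and 496 ± 84.7 CPM on control diet (1.39, SE 0.21, adjusted p = 0.0238). Col6a1 rose by 1.40 in transgenic tissue (adjusted p = 0.00285) and by 1.07 in wild-type tissue (adjusted p = 0.0348), and Col15a1, a basement membrane collagen, by 1.25 (adjusted p = 0.00285) and 0.86 (adjusted p = 0.0443). Col5a3, a minor fibrillar chain, rose by 1.76 in transgenic tissue (adjusted p = 0.00375), and its wild-type value was 1.04 (adjusted p = 0.0801 with edgeR, 0.0046 with DESeq2). Elastin, the other lysyl oxidase substrate, had a log2 fold change of -0.11 in transgenic tissue (adjusted p = 0.823) and 0.43 in wild-type tissue (adjusted p = 0.387).

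The wild-type count of 3 rested on more than one library. It was 0 without wild-type high-fat library 1 or 2 or wild-type control library 1 or 2, and 1 without wild-type high-fat library 3, but 8 with DESeq2 and 7 with limma-voom. The transgenic count fell to 5 without transgenic control library 1.

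**Figure D3:**
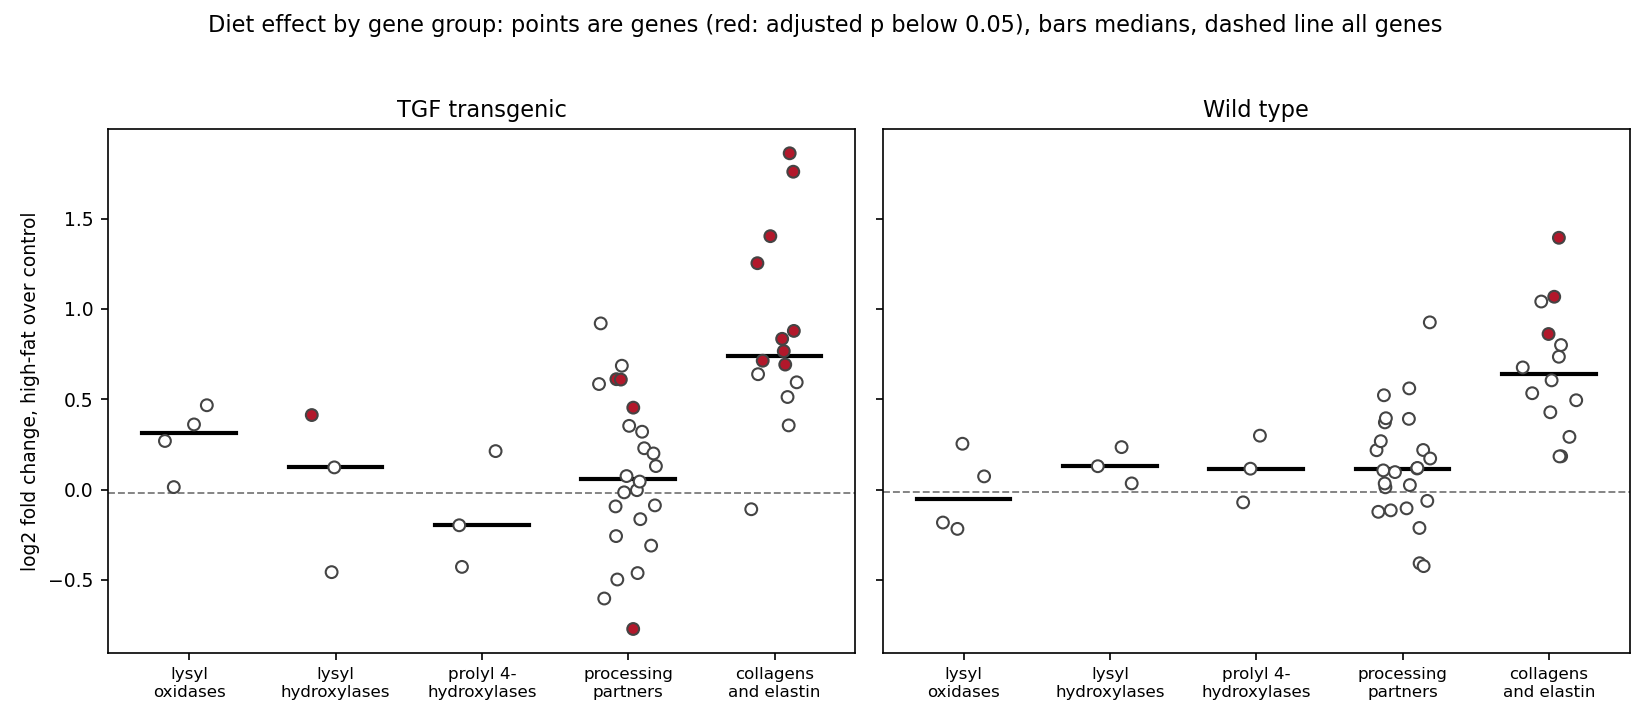
Log2 fold change, high-fat over control diet, of each gene by functional group, in transgenic tissue on the left and wild-type tissue on the right. Points are genes, filled red at an adjusted p below 0.05, black bars are group medians, and the dashed line is the median of all genes tested. The collagens and elastin have medians of 0.74 and 0.64, above those of all 3 enzyme groups.

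Set against each other, enzyme and collagen transcripts gave a lower enzyme share on high-fat diet. Summed over the 10 genes, enzyme transcript averaged 169 ± 1.60 CPM per kb in transgenic high-fat and 156 ± 10.99 in transgenic control libraries, and 152 ± 11.5 in wild-type high-fat and 152 ± 21.9 in wild-type control libraries (SD, n = 3 each). Summed over the 13 collagen chains, it was 1484 ± 156 CPM per kb in transgenic high-fat and 756 ± 118 in transgenic control libraries, and 1361 ± 185 in wild-type high-fat and 802 ± 94.2 in wild-type control libraries. The enzyme sum on high-fat diet was thus 1.08 times the control sum in transgenic and 0.997 times in wild-type tissue, and the collagen sum 1.96 and 1.70 times.

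Per 100 units of collagen transcript, there were 12.1, 11.98 and 10.3 units of enzyme transcript in transgenic high-fat libraries, against 22.9, 19.2 and 20.5 in transgenic control libraries. In wild type there were 11.2, 10.4 and 12.02 units in high-fat libraries, against 18.3, 19.2 and 19.3 in control libraries. The diets did not overlap in either genotype, and no p is given because the genes were chosen together. Each class had the same order, but all classes are divided by the same collagen sum. Their orders are therefore not separate results, and the ratio was chosen after values were seen. Lysyl oxidases stood at 6.34 ± 0.952 on high-fat and 11.3 ± 0.680 on control diet in transgenic tissue, and at 5.75 ± 0.553 and 10.4 ± 0.599 in wild-type tissue on those diets. Elastin, the other lysyl oxidase substrate, was not in the collagen sum, and no single class was set against the fibrillar chains alone. Lysyl hydroxylases stood at 4.12 ± 0.268 on high-fat and 7.23 ± 1.18 on control diet in transgenic tissue, and prolyl 4-hydroxylases at 1.01 ± 0.249 and 2.34 ± 0.587. With the 6 fibrillar chains alone as the denominator the shares were 38.8 in transgenic high-fat and 57.4 in transgenic control, and 39.8 in wild-type high-fat and 56.0 in wild-type control libraries.

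Summed markers of several cell types also lay apart by diet. The sum of 11 fibroblast and progenitor markers was 1994 to 2581 CPM in transgenic high-fat and 2817 to 3673 CPM in transgenic control libraries, and 2576 to 2972 CPM in wild-type high-fat and 3220 to 4271 CPM in wild-type control libraries, with no marker at 0. Dcn alone lay at 1076 to 2761 CPM, and the markers did not move as one, with 4 of 11 positive in transgenic tissue (1 passed, lower) and 3 of 11 in wild-type tissue (none passed). The sum of 9 mesothelium markers was 128 to 369 CPM in transgenic high-fat and 649 to 839 CPM in transgenic control libraries, and 373 to 475 CPM in wild-type high-fat and 574 to 923 CPM in wild-type control libraries. The sum of 12 macrophage markers was 969 to 1373 CPM in transgenic high-fat and 893 to 928 CPM in transgenic control libraries, and overlapped in wild type, with 1071 to 1122 CPM in high-fat and 1042 to 1226 CPM in control libraries. Cycling-cell markers, 7 genes, summed to 70.2 to 100.2 CPM in transgenic high-fat and 48.2 to 61.1 CPM in transgenic control libraries, and to 71.6 to 80.6 CPM in wild-type high-fat and 50.0 to 58.6 CPM in wild-type control libraries. Of these 7, high-fat diet raised 5 in transgenic and 3 in wild-type tissue. Endothelial markers, 8 genes, overlapped in transgenic tissue, at 784 to 1030 CPM on high-fat and 843 to 992 CPM on control diet. In wild type they lay at 851 to 934 CPM on high-fat and 652 to 770 CPM on control diet, with all 8 log2 fold changes positive and none past the threshold. The part of these cells in the enzyme and collagen values was not tested.

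**Figure D4:**
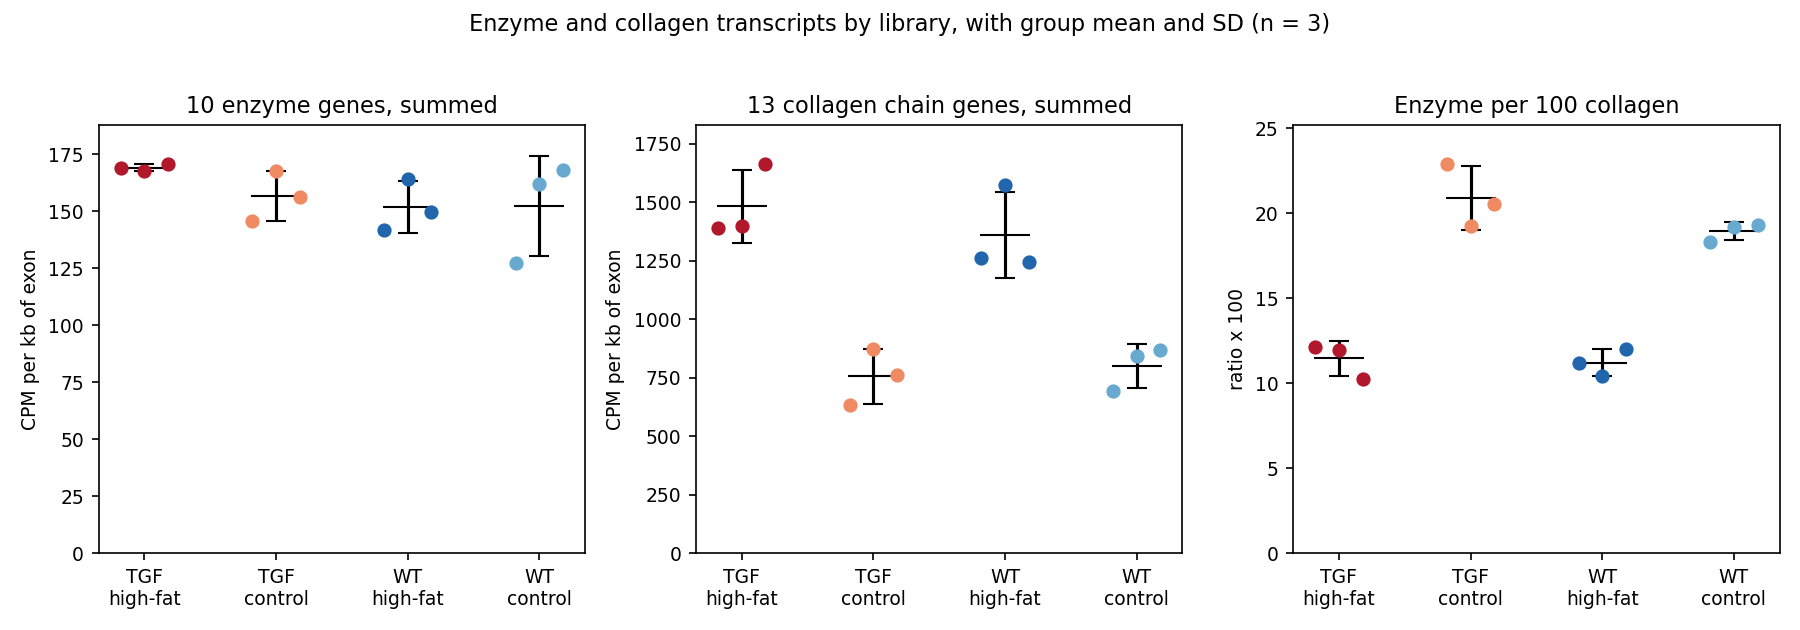
Summed transcript of the 10 enzyme genes and of 13 collagen chain genes in CPM per kb of exon, and their ratio times 100, for transgenic (TGF) and wild-type (WT) libraries on high-fat and control diet. Points are libraries and black lines the group mean and SD (n = 3). The enzyme sums overlap between diets, whereas the ratio is at most 12.1 on high-fat and at least 18.3 on control diet.

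A pair of regulators known to act on these enzymes was read from their other targets. Of 17 HIF-1 targets that are not among the enzymes, high-fat diet lowered 1 in transgenic tissue and none in wild-type tissue, with medians of 0.09 and -0.06. With 8.73% and 1.14% of all genes passing in those comparisons, these counts do not exceed the background. The 1 was Egln3, a hypoxia-induced prolyl hydroxylase of HIF itself (log2 fold change -1.06, SE 0.29, adjusted p = 0.0401). That call was lost in 9 of the 12 fits that left out 1 library, among them those without any 1 transgenic high-fat library (adjusted p 0.0617 to 0.147), transgenic control library 1 or 2, any 1 wild-type high-fat library or wild-type control library 2 (0.0562 to 0.135). Beside it, Pdk1 had -0.50 (adjusted p = 0.193), Bnip3 -0.39 (adjusted p = 0.271) and Higd1a 0.30 (adjusted p = 0.227) in transgenic tissue. In wild-type tissue Eno1 had -0.55 (adjusted p = 0.208), Slc2a1 0.40 (adjusted p = 0.219), Egln3 -0.68 (adjusted p = 0.241) and Pdk1 -0.50 (adjusted p = 0.283), and Eno1 passed without wild-type control library 3 (-0.81, adjusted p = 0.0167). The known HIF-1 targets among the enzymes, Plod2, P4ha1 and P4ha2, had -0.46, -0.43 and 0.21 in transgenic tissue.

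Of 11 TGF-beta targets, none passed the diet test in transgenic or wild-type tissue with edgeR, with medians of 0.31 and -0.20. Of all genes tested 8.73% and 1.14% passed in those comparisons, so none of 11 lies near that background. The lowest unadjusted p-values belonged in transgenic tissue to Fn1, fibronectin (0.63, adjusted p = 0.133), Pmepa1 (0.68, adjusted p = 0.148), Skil (-0.38, adjusted p = 0.149) and Tgfb1i1 (0.31, adjusted p = 0.176). In wild-type tissue they belonged to Tgfbi (-0.38, adjusted p = 0.231), Ccn2 (1.14, adjusted p = 0.244), Tgfb1i1 (0.22, adjusted p = 0.407) and Ltbp2 (-0.28, adjusted p = 0.573).

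Across the 12 libraries the enzyme genes did not vary as 1 block. Of the 45 pairs, 28 had a positive Pearson correlation of log2 CPM, with a median of 0.098. The permutations shuffled all 12 libraries without regard to group, so their p does not separate group differences from variation within groups. Plod2 and P4ha3 had the highest correlation (r = 0.820, permutation p = 0.00094, adjusted over the 45 pairs 0.0423, Spearman rho = 0.790, adjusted 0.109). It was 0.716 without the 2 libraries farthest from the Plod2 median and 0.825 within groups. Loxl1 and P4ha3 followed (r = 0.796, permutation p adjusted 0.0454, rho = 0.734, adjusted 0.134), with 0.600 without the 2 farthest libraries and 0.913 within groups. Both relations passed by Pearson's r and not by rho. Wild-type control library 1 was the lowest in Plod2 and P4ha3, and wild-type high-fat library 2 and wild-type control library 3 were the highest in P4ha3. Plod1 and Plod3 had r = 0.699 (adjusted permutation p = 0.171), which dropped to 0.367 without the 2 farthest libraries and was 0.901 within groups. The lowest correlation joined Lox and P4ha1 at -0.558.

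**Figure D5:**
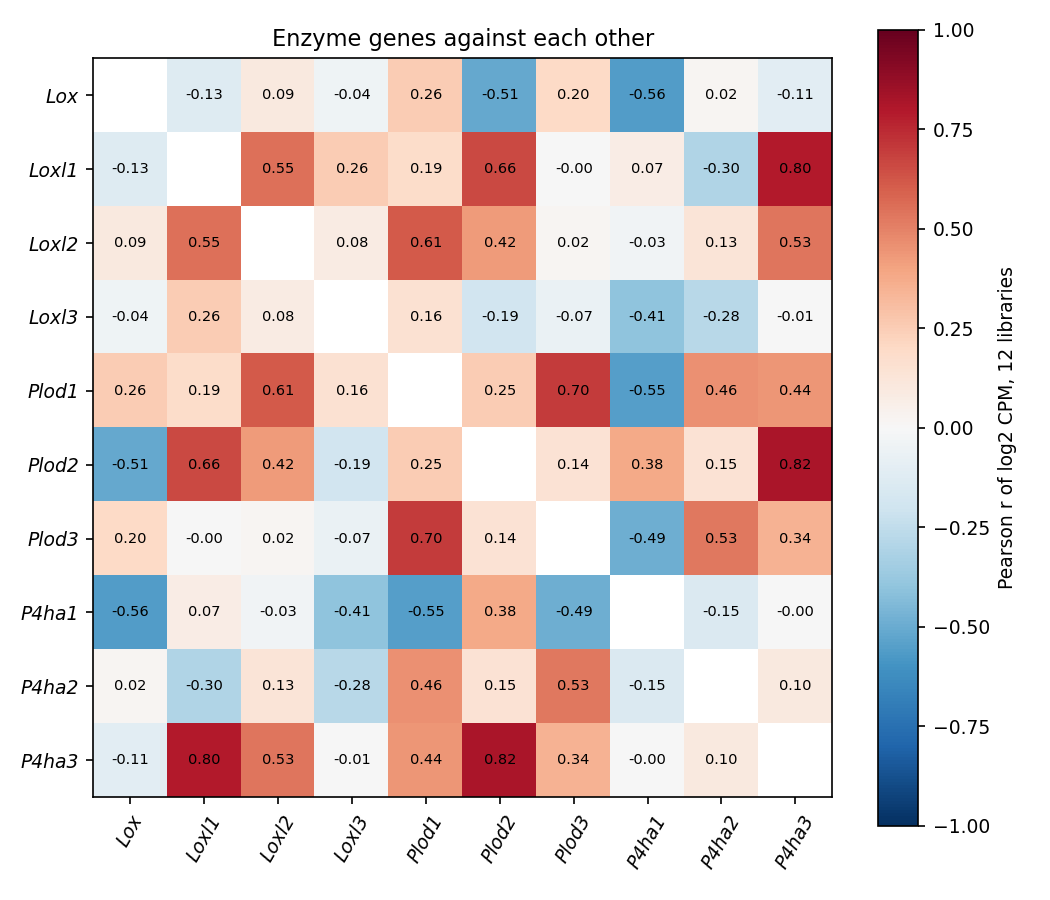
Pearson correlation of log2 CPM over 12 libraries for each pair of enzyme genes, from -1 (blue) to 1 (red), with the value in each square. The darkest red squares off the blank diagonal join P4ha3 with Plod2 (0.82) and with Loxl1 (0.80).

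The genes whose levels ran closest to each enzyme gene were taken from 10793 genes averaging at least 5 CPM, by Pearson's r of log2 CPM over the same 12 libraries (10794 for P4ha3, itself below that level). Plod1 had the closest match of all, with Tapbp, the peptide-loading protein tapasin, at 0.971, then Palld at 0.950 and Rhbdf1 at 0.942. For the other lysyl hydroxylases they were Nkain1 (0.917), Csnk1d and Zxdc with Plod2, and Rgp1 (0.901), Eif4enif1 and Sipa1l1 with Plod3. For the lysyl oxidases they were Cds1 (0.903), Cib2 and Atg4c with Lox, Ring1 (0.871), Cd248 and C1qa with Loxl1, Rap2b (0.909), Celsr2 and Fbn1 with Loxl2, and Nsmce2 (0.906), Fxyd2 and Ermard with Loxl3. For the prolyl 4-hydroxylases they were Zmat1 (0.915), Pard3b and Trmt10a with P4ha1, Cd83 (0.907), Myo1c and C9orf72 with P4ha2, and Adgrl1 (0.920), Bmper and Nfatc4 with P4ha3. No other enzyme gene was among the 3 closest of any enzyme gene. The best of that many candidates over 12 points is high by selection, so these values carry no p.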

How the data were processed

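RNA of visceral white adipose tissue was measured in 12 libraries, grouped by the titles, with replicate numbers naming the libraries. The authors deposited unnormalized read counts per gene, made with HISAT2 2.2.0, HTSeq 2.0 and the mm10 build per the submitters' processing notes, which also name DESeq2 1.32.0. Neither the annotation nor the strand setting is given in the sources used here. The authors' deposited comparison tables give log2 fold changes, standard errors, Wald scores and p-values per gene, per the file headers.

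The 5 summary lines per file (16.8% to 21.0% of reads) were left out. Counts were fitted in R 4.3.3 with edgeR 4.0.16: filterByExpr (minimum count 10, minimum total 15), TMM factors, a model of 4 group means (8 residual degrees of freedom, biological coefficient of variation 20.1%) and the quasi-likelihood F test for 7 comparisons, with Benjamini-Hochberg adjustment over 16550 genes and calls at an adjusted p below 0.05. The fit was tested on simulated data. Log CPM used a prior count of 2. Exon lengths, overlaps and gene coordinates came from GENCODE M21 (GRCm38). No pair of libraries agreed within counting noise (lowest chi-square 20.7 per degree of freedom, 66 pairs). Precision is limited by n = 3, by the counts given and by the spread among libraries.

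The members and lists were chosen with earlier results of these data known, and 1 gene of the TGF-beta target list is not reported here. By rule, per-library values belonged to genes that passed. Those of other enzyme genes, and the enzyme to collagen ratio with its alternatives, were chosen after values were seen. From each pathway list up to 4 genes with the smallest p per diet comparison were named, and 3 closest genes per enzyme. Alternatives were DESeq2 1.42.0, limma-voom (limma 3.58.1), other scaling and filters, the compared groups alone, a replicate block, libraries rich in keratin or muscle markers left out, and each library left out.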

Additional observations from a re-analysis of the deposited data

How the results depend on the processing

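In wild-type tissue, between genotypes and for the difference of the diet effects, 0 of the 10 enzyme genes passed under each alternative run. The transgenic diet count of 1 was 0 with library totals, with the compared groups alone, without both keratin-rich and without both muscle-rich libraries, and 0 to 1 on leaving out each library in turn. The averaged diet count of 1 was 0 without both keratin-rich libraries and 1 to 2 on leaving out each library. P4ha3 had the lowest counts of the 10 genes, 11 to 148 a library. The causes of these changes were not tested.

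Of the values that did not pass, Loxl1 in transgenic tissue turned to -0.00955 with library totals, and lay between -0.066 and 0.0884 on leaving out each library. In wild-type tissue Lox turned to -0.00318 with limma-voom, and without both keratin-rich libraries Lox was -0.0756, P4ha3 -0.37, Plod2 -0.17 and Plod3 -0.0246. On leaving out each library the wild-type values ran from -0.10 to 0.46 for Lox, -1.03 to 1.56 for P4ha3, -0.22 to 0.70 for Plod2 and -0.0242 to 0.0743 for Plod3.

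The processing partners in transgenic tissue, 4 called, were 2 with the compared groups alone, 2 without both keratin-rich libraries and 1 to 5 on leaving out each library, and in wild-type tissue, with 0 called, 1 with DESeq2. The collagens and elastin in wild-type tissue, 3 called, were 8 with DESeq2, 7 with limma-voom, 6 without the low-count filter, 0 without both keratin-rich libraries, 1 without both muscle-rich libraries and 0 to 3 on leaving out each library. In transgenic tissue, 9 called, they were 5 to 9 on leaving out each library. The HIF-1 targets in transgenic tissue, 1 called, were 0 with the compared groups alone, 0 without both keratin-rich libraries and 0 to 1 on leaving out each library, and in wild-type tissue 0 to 1. The TGF-beta targets in transgenic tissue were 1, Pmepa1, without both keratin-rich libraries (0.96, adjusted p = 0.0381).

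Enzyme transcript per 100 collagen transcript, without division by length, was 7.21 in transgenic high-fat, 12.3 in transgenic control, 7.22 in wild-type high-fat and 11.5 in wild-type control libraries, and with fibrillar chains alone 38.8, 57.4, 39.8 and 56.0 in those groups. These alternatives were added after seeing the data. Over all genes, library totals gave 246 calls for diet in wild-type tissue, 76.0% of them higher, against 188 and 60.1% with TMM. DESeq2 called 851 there, limma-voom 699, and 683 passed without the low-count filter.

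Libraries that share a replicate number were not treated as pairs in the main fit, because the labels do not say that the numbers pair them. Their deviations correlated between -0.07 and 0.16, and some but not all libraries correlated best with their own number. Such correlations over all genes cannot decide whether the libraries were paired. With the replicate block 1 enzyme gene passed for diet in transgenic tissue (Plod1, 0.41, adjusted p = 0.0395), 0 in wild-type tissue and 1 averaged over genotypes (Plod1, 0.33, adjusted p = 0.0147). With it the calls of P3h4 in transgenic tissue (-0.76, adjusted p = 0.0509) and Col15a1 in wild-type tissue (0.86, adjusted p = 0.0668) were lost, and there were 1087 and 99 calls over all genes for diet in transgenic and wild-type tissue, against 1445 and 188.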
